A study of Mus musculus with 15 samples.

Results

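The genes described here encode the proteasome, its activators and inhibitor and its assembly factors, in a mouse dendritic cell line treated with a contact allergen or an oxidant. Members were chosen by name: every gene whose symbol starts with Psma, Psmb, Psmc, Psmd, Psme, Psmf or Psmg and that had a probe set (a group of oligonucleotides for a transcript) annotated to it alone, leaving out the immunoproteasome genes Psmb8, Psmb9 and Psmb10. This gave 46 genes on 99 probe sets, of 18193 genes with a symbol on the array. For each gene the probe set with the highest mean over the 15 arrays was used. A filter on low signal left 44 members among 12701 genes tested. Psma8 and Psmb11 did not pass it, and a probe set shared by a pair of Psme2 genes falls outside the choice.

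The cells were a line from newborn A/J mouse epidermis that the labels call dendritic. They were left non-treated, or received DNFB (dinitrofluorobenzene, a contact allergen that binds proteins), H2O2 (hydrogen peroxide), DPI (diphenyl iodonium, which blocks NADPH oxidases and other flavin enzymes) or DPI + DNFB, with 3 arrays in each of the 5 groups. All groups share the line and its A/J background. The control arrays are labelled non-treated, but the design text names a vehicle, and the doses and times are not given in the sources used here. The labels do not say whether the arrays within a group stem from separate cultures, so the p-values reflect array-to-array spread alone, and that may be technical.

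Of 14 dendritic and Langerhans cell markers 13 were above the signal filter. H2-Aa, Cd74 and Ptprc had group mean signals of 9937 or more, and Ccr7 was below the filter. Others were dim, with group means of 35.1 to 132.7 for Flt3, 173.2 to 237.5 for Zbtb46 and 184.6 to 298.4 for Epcam. Cd207 stood at 988.4 with DNFB and between 31.9 and 193.6 in the other groups. The filter is on the mean of all 15 arrays, so a marker can pass it while low in some groups. Of the markers of other skin cells, 3 of 6 keratinocyte, 1 of 6 fibroblast, 0 of 3 T cell, 1 of 4 mast cell and 2 of 4 melanocyte genes passed the filter. The summed keratinocyte signal was 509.3 to 634.8 with DNFB against 261.5 to 509.7 non-treated and up to 842.4 with DPI + DNFB, with Krt5 at a mean of 258.5 with DNFB against 67.7 non-treated, and Krt1, Krt10 and Krt14 below the filter. The summed T cell signal was 151.2 to 197.7 on the DPI + DNFB arrays and at most 129.2 on the others. The part of these signals in the results was not tested. The ratio of 3' to 5' signal of beta-actin, a sign of RNA quality, was 2.07, 1.504 and 2.288 on the DPI + DNFB arrays against 1.19 to 1.53 on the other 12. In bulk RNA, fewer cells of a type and less RNA per cell cannot be told apart.

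The proteasome degrades proteins tagged with ubiquitin. Its core particle is a barrel of alpha and beta rings, with the cutting sites on 3 beta subunits, and a regulatory particle of a base and a lid caps the barrel, takes off the ubiquitin, unfolds the substrate and feeds it in. Dedicated chaperones build both, and other caps can replace the regulatory particle. Proteasome genes are known to be induced together by NFE2L1 when proteasome activity falls, and some by NFE2L2 under oxidants, through antioxidant response elements in their promoters. Dendritic cells use proteasomes to make the peptides that they present on MHC class I.

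Since those factors bind antioxidant response elements, the 250 bases before each start site were searched on both strands for the core of that element, TGACNNNGC or TGAGNNNGC. RefSeq's promoter table (GRCm38.p6) matched 38 of the 46 members, with 41 promoters. The core was found in 14 of the 41 (34.1%), from 13 genes, and in 23.0% of all 32851 promoters. CCAAT was found in 36.6% of the members' promoters and 33.8% of all, and the heat shock core GAANNTTC or TTCNNGAA in 9.76% and 12.8%. A match is a description of the letters, not a measured site. Matches of members whose signals are described below are shown, 1 for each gene and both for Psmc6, 5′ to 3′ along the gene, with the matching bases in capitals (where the match lies on the other strand, the capitals read as its reverse complement).
Psmd5, chr2:34871097-34871125, gene on the minus strand: gatcccctggGCGGTCTCAgtctcttagt
Psmd12, chr11:107479490-107479518, gene on the plus strand: cctgagtggaTGAGCGGGCgacttccggt
Psmd1, chr1:86064385-86064413, gene on the plus strand: tggcgggtgaTGAGTGGGCctctctttgc
Psmc6, chr14:45329574-45329601, gene on the plus strand: acttaatatTGAGCCAGCcagtagctaa
Psmc6, chr14:45329587-45329615, gene on the plus strand: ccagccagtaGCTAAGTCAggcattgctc
Psma6, chr12:55384042-55384070, gene on the plus strand: gtcaggtcagGCAACCTCAtcagctctca
Psma4, chr9:54950722-54950750, gene on the plus strand: gtgggcagacTGAGCCCGCcccagcactg
Psmb3, chr11:97703414-97703433, gene on the plus strand: gcgttgacccTGAGAAAGCc
Psmb6, chr11:70525338-70525356, gene on the plus strand: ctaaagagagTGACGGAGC
Psmb5, chr14:54618024-54618052, gene on the minus strand: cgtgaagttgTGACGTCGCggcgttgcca
Psmg4, chr13:34162927-34162955, gene on the plus strand: tctaggccccGCCCACTCAtgctcgcccc
Psmc3ip, chr11:101095436-101095461, gene on the minus strand: ttaaggtcccGCCTCCTCAccggaag
The windows of the 2 Psmc6 matches overlap. The 13 members with a match did not share a response: with H2O2 5 of them rose and 1 fell, with DNFB 2 rose, with DPI 2 rose and 2 fell, and with DPI + DNFB 4 rose and 3 fell against non-treated cells. Among the 24 tested members in the table without a match the rises and falls numbered 3 and 1 with H2O2, 3 and 2 with DNFB, 5 and 3 with DPI, and 3 and 3 with DPI + DNFB. Psmd11, Psmd8 and Psmg1, described below, are among those without one.

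The responses of the 44 tested members were small and mixed in sign. Signals are on a linear scale after each array was set to the same trimmed mean, and a difference is on the scale of log2(signal + 15), called changed at a limma adjusted p below 0.05 over all 12701 genes. Of 55 changes that passed against non-treated cells, 3 reached 2-fold. DNFB was followed by 5 rises and 2 falls among the 44 members. H2O2 gave 10 rises and 3 falls, DPI gave 11 and 7, and DPI + DNFB gave 9 and 8. The share of members changed, 15.9%, 29.5%, 40.9% and 38.6% in that order, can be read against that of all genes: 24.4% with DNFB, 28.3% with H2O2, 31.8% with DPI and 33.8% with DPI + DNFB. The 4 comparisons share the non-treated arrays.

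**Figure D1:**
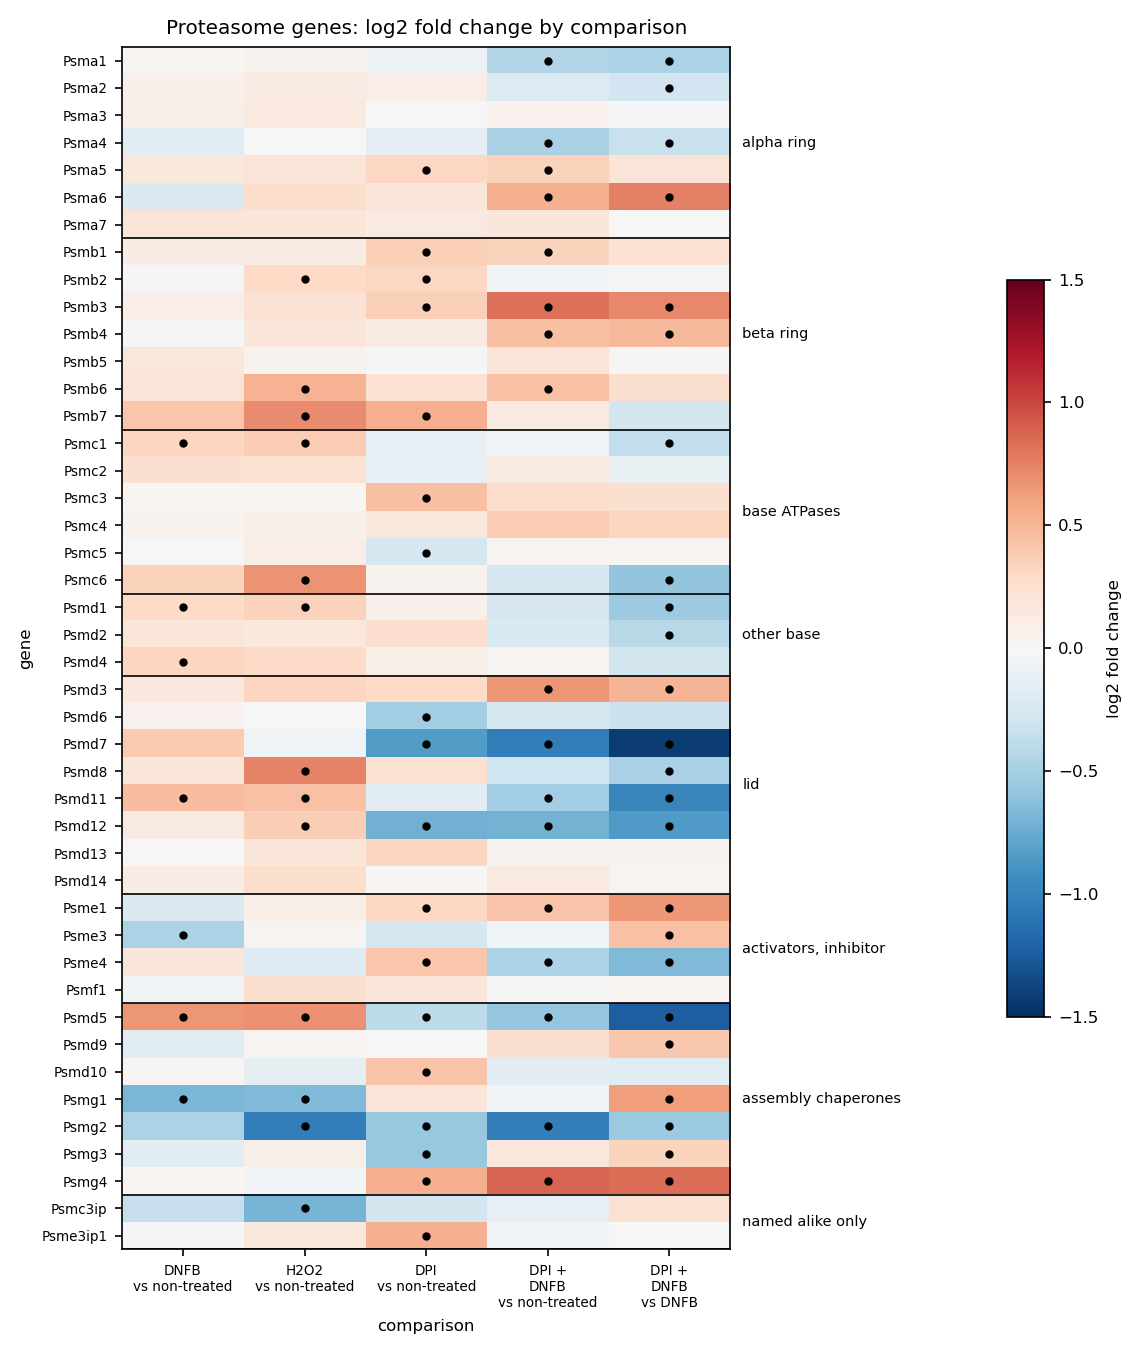
Log2 fold change of the 44 tested proteasome genes (rows, grouped by role) in 5 comparisons (columns), with red for higher and blue for lower in the group named above the other and a dot where the change passed the limma test. Psmd5 has a dot in every column, red with DNFB and with H2O2 and blue with DPI and DPI + DNFB, while neighbours within a role often differ in sign.

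With H2O2 22.7% of the members rose against 10.9% of all genes, and 6.82% fell against 17.4%. With DPI 25% of members rose (13.3% of all genes) and 15.9% fell (18.4%). With DNFB 11.4% of members rose (10.5% of all genes) and 4.55% fell (13.9%). With DPI + DNFB the shares were 20.5% higher (15% of all genes) and 18.2% lower (18.7%). The median log2 fold change of the 44 members was 0.162 with H2O2, 0.114 with DPI, 0.0782 with DNFB and 0.0149 with DPI + DNFB. That of all genes was -0.0646, -0.00653, -0.0551 and 0.0244. The DPI median of the members was -0.002 after quantile normalization, and that of DPI + DNFB was -0.24 after median centring, which moved the median of all genes by -0.251 there. Median centring gave 1 rise and 1 fall with DNFB, 5 and 3 with H2O2, 5 and 5 with DPI and 3 and 15 with DPI + DNFB, and quantile normalization gave 6 and 7 with DPI and 4 and 10 with DPI + DNFB. On the values as deposited, with 2 scaling targets mixed within groups, limma called 0 members in each of the 8 comparisons (0 to 4 had an unadjusted p below 0.05).

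Single arrays decide part of these counts. For DNFB the count of 7 members became 3, 4 and 3 without non-treated replicate 1, 2 or 3, and 4 without DNFB replicate 3. The 13 members of H2O2 became 8 without non-treated replicate 3 and 8 without H2O2 replicate 2. For DPI the 18 became 10, 11 and 10 without non-treated replicate 1, 2 or 3, and 8 without DPI replicate 1 or replicate 3. Of all 112 calls over 8 comparisons, 61 held without each of the 15 arrays in turn. Another kept probe set of the same gene existed for 51 of the calls. In 30 of these at least 1 such probe set had a log2 fold change of the opposite sign, and in 7 an opposing one passed too. Arrays deposited at a scaling target of 250 (6 arrays) and of 500 (9 arrays) were also fitted apart, with a group of 1 array taking its spread from the others: 5 and 2 members passed with DNFB, 5 and 9 with H2O2, 4 and 8 with DPI, and 12 and 10 with DPI + DNFB. With the beta-actin ratio as a covariate 0 members passed for DPI + DNFB against non-treated (7.32% of all genes did, and 6 members had an unadjusted p below 0.05). The ratio was 2.07, 1.504 and 2.288 on the DPI + DNFB arrays and at most 1.534 on the others. It thus ran largely with that group. The covariate fit cannot tell RNA quality and DPI + DNFB apart, and a call lost in it does not mean that a change was absent.

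The core particle held few changes with DNFB. None of its 14 tested genes passed limma there (2 had an unadjusted p below 0.05), and their log2 fold changes ran from -0.22 to 0.41. With H2O2 3 rose (2 after median centring, 2 after quantile normalization), and with DPI 5 rose (1 and 0 in that order). With DPI + DNFB 6 rose and 2 fell (1 and 3 after median centring, 2 and 3 after quantile normalization). The alpha ring, which gates the barrel, had 1 of 7 genes up with DPI (Psma5) and, with DPI + DNFB, Psma5 and Psma6 up and Psma1 and Psma4 down.

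The signal of the alpha subunit Psma6 was 21387, 22638 and 24053 on the non-treated arrays, 20095, 19362 and 18964 with DNFB, 24781, 28947 and 27791 with H2O2, 26568, 24299 and 26472 with DPI and 32143, 30722 and 36066 with DPI + DNFB. All 3 DPI + DNFB arrays lay above every other array, and the DNFB arrays lay below the rest. Psma6 was 1.45-fold higher with DPI + DNFB than without treatment (log2 0.54 ± 0.101, SE from 3 arrays per group, limma adjusted p = 0.00038), 1.69-fold higher than with DNFB alone (log2 0.76 ± 0.101, adjusted p = 5.14e-06) and lower with DNFB than with H2O2 (log2 -0.48 ± 0.101, adjusted p = 0.00312). The other 3 kept probe sets of Psma6 read -0.45, 0.01 and 0.19 for DPI + DNFB against non-treated. With the beta-actin ratio as a covariate the first value was 0.34 (adjusted p = 0.225).

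For Psma4 the arrays read 9019.9, 7833 and 8103 on the non-treated arrays, 7565, 6492 and 8321 with DNFB, 9229, 8278 and 7369 with H2O2, 8000.3, 7024 and 7592 with DPI and 5436, 6892 and 5502 with DPI + DNFB. The DPI + DNFB arrays lay below all non-treated ones (log2 -0.49 ± 0.121, adjusted p = 0.00366). Psma1 fell by a similar amount in that comparison (log2 -0.44 ± 0.121, adjusted p = 0.00813), but DPI + DNFB replicate 2, at 10734, lay within the non-treated range, other kept probe sets gave -0.63 and 0.42, and without non-treated replicate 3 the value was -0.36 (adjusted p = 0.0516) and without DPI + DNFB replicate 3 -0.32 (0.0562). The rise of Psma5 with DPI + DNFB (log2 0.35 ± 0.105, adjusted p = 0.0138) ended without non-treated replicate 1 (0.27) or DPI + DNFB replicate 3 (0.27). With DPI alone Psma5 was at log2 0.30 ± 0.105, adjusted p = 0.0317, a call that ended without non-treated replicate 1 or without any of the DPI arrays, at values from 0.22 to 0.32. Psma2, Psma3 and Psma7 had log2 fold changes between -0.21 and 0.19 in the 4 comparisons against non-treated and passed in none of these.

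In the beta ring, which holds the cutting sites, the calls against non-treated cells were all rises, also after median centring or quantile normalization where any passed: 3 of 7 genes with H2O2, 4 with DPI and 4 with DPI + DNFB, against 0 with DNFB (1 had an unadjusted p below 0.05). Median centring left 2 with H2O2, 1 with DPI and 1 with DPI + DNFB, and quantile normalization left 2, 0 and 2. None of the DPI calls of this ring held without each array in turn. That of Psmb3 was ended by 12 of the 15 arrays and that of Psmb1 by 4, and 5 arrays each ended that of Psmb2 with H2O2. Psmb6, the caspase-like site, read 4530.0, 4406 and 4417 on the non-treated arrays, 5021, 4497 and 5866 with DNFB, 6349.9, 7071 and 5858 with H2O2, 5053, 4977 and 5521 with DPI and 5309, 5958 and 6904 with DPI + DNFB. It was 1.44-fold higher with H2O2 (log2 0.52 ± 0.116, adjusted p = 0.0018) and 1.35-fold higher with DPI + DNFB (log2 0.44 ± 0.116, adjusted p = 0.00649), and neither group overlapped the non-treated arrays.

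Psmb7, the trypsin-like site, spread more, with 5645, 4081 and 3491 on the non-treated arrays, 6315, 5042 and 5951 with DNFB, 8827, 7253 and 5567 with H2O2, 7269.6, 4891 and 7053 with DPI and 5893, 4393 and 4079 with DPI + DNFB. The non-treated range reached into each other group, and the call with H2O2 (log2 0.71 ± 0.192, adjusted p = 0.00805) ended without non-treated replicate 3 (0.56, adjusted p = 0.0574) or H2O2 replicate 1 (0.56, 0.0551). With DPI it stood at log2 0.55 ± 0.192, adjusted p = 0.0359, and that call ended without any of non-treated replicate 2 (0.50), non-treated replicate 3 (0.39), DPI replicate 1 (0.44) or DPI replicate 3 (0.46).

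The chymotrypsin-like subunit Psmb5, whose promoter holds the sequence shown above, had signals of 5993, 5105 and 5503 on the non-treated arrays, 7026, 5523 and 6212 with DNFB, 6130.0, 5584 and 5486 with H2O2, 5414, 5326 and 5671 with DPI and 6130.2, 6147 and 6665 with DPI + DNFB. Its groups lay close together, with log2 fold changes of 0.17 ± 0.103 with DNFB, 0.05 with H2O2, -0.01 with DPI and 0.19 with DPI + DNFB, and adjusted p between 0.161 and 0.939.

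Psmb3 is a structural beta subunit without a cutting site. It read 7927, 6909.7 and 7498 on the non-treated arrays, 7925, 7620.3 and 8319 with DNFB, 7869.6, 8452 and 9609.6 with H2O2, 9866, 8913 and 9841 with DPI and 12844, 10422 and 16962 with DPI + DNFB. All 3 DPI + DNFB arrays lay above the other 12. The difference from non-treated was 1.77-fold (log2 0.82 ± 0.134, adjusted p = 9.81e-05), and that from DNFB alone 1.65-fold (log2 0.72 ± 0.134, adjusted p = 0.000188). The gene's other kept probe set read 0.26 and 0.19 for these, and the covariate fit gave 0.34 (adjusted p = 0.316) for the former. Against DPI alone the rise was log2 0.46 ± 0.134, adjusted p = 0.0141, and without DPI replicate 2 it was 0.42 (adjusted p = 0.0552) and without DPI + DNFB replicate 3 0.28 (0.101). Psmb2 was higher with DPI (log2 0.31 ± 0.0955, adjusted p = 0.0164, but 0.29 and adjusted p = 0.0624 without DPI replicate 3), and Psmb1 and Psmb4 had log2 fold changes of 0.33 and 0.46 with DPI + DNFB. Both of those calls ended without non-treated replicate 1 (0.22 and 0.31) or DPI + DNFB replicate 3 (0.30 and 0.37), and that of Psmb1 also without non-treated replicate 2 (0.33) or DPI + DNFB replicate 2 (0.32). Other kept probe sets of Psmb1 gave -0.34 and 1.13, of which the second passed, and that of Psmb3 gave -0.20 against DPI.

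The 17 tested genes of the regulatory particle held rises and no falls among those that passed with DNFB and H2O2, and changes in either direction with DPI. All 17 had a log2 fold change above 0 with DNFB, of which 4 passed (0 after median centring, and the values as deposited left 3 above 0). With H2O2 16 were above 0 and 6 passed (2 after median centring, 4 after quantile normalization). The median log2 fold change of all genes was -0.0551 with DNFB and -0.0646 with H2O2, and the share of all genes above 0 was not computed. With DPI 10 of 17 were above 0 (7 after quantile normalization), 1 rose, 4 fell and 12 did not pass. With DPI + DNFB 8 of 17 were above 0, and 1 rose and 3 fell (1 and 8 after median centring). The falls with DPI and with DPI + DNFB count Psmd7 on its chosen probe set, which another kept probe set opposes. The median log2 fold change of the 17 genes was 0.185 with DNFB, 0.26 with H2O2, 0.0585 with DPI and -0.0465 with DPI + DNFB, against 0.0883, 0.185, 0.158 and 0.188 for the core particle. The sign turned to -0.147 and -0.244 for DNFB in the values as deposited, to -0.056 and -0.002 for DPI after quantile normalization, and to -0.064 for the core particle with DPI + DNFB after median centring. For H2O2 quantile normalization gave 0.203 for the regulatory particle and 0.0167 for the core particle. No difference between the particles was tested.

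**Figure D2:**
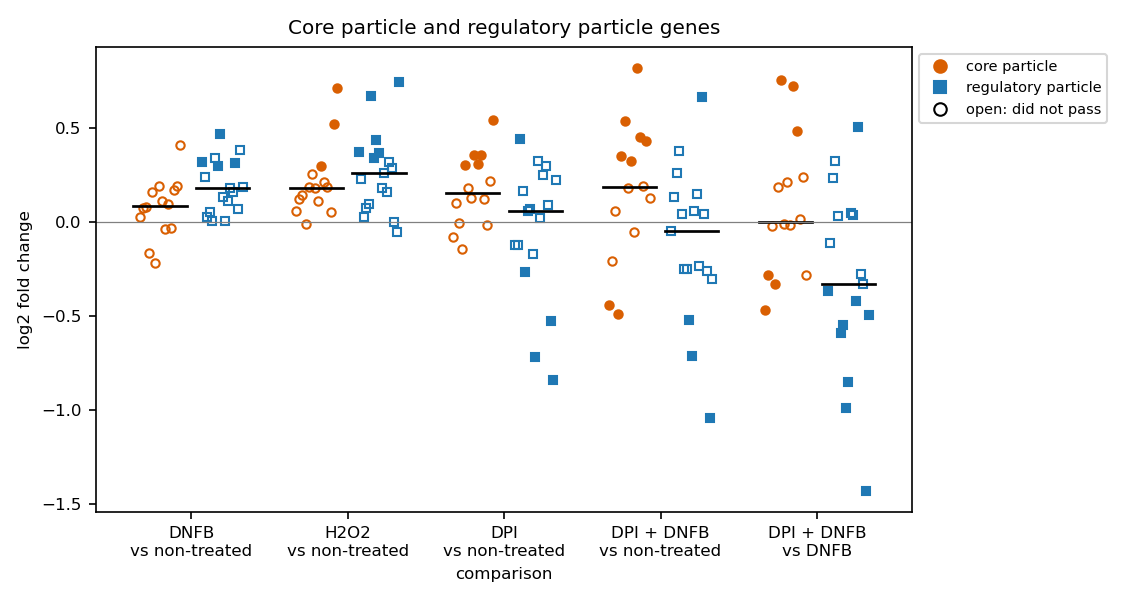
Log2 fold change of each gene of the core particle (orange circles, 14 genes) and regulatory particle (blue squares, 17 genes) in 5 comparisons, with filled symbols for genes that passed the limma test and black lines for medians. In DPI + DNFB against DNFB 8 regulatory genes fell and 1 rose, with a median of -0.327 (0.006 in the values as deposited). The 8 count Psmd7 on its chosen probe set, which another kept probe set opposes. Of the core particle genes 3 rose and 3 fell. Of all genes 22.9% rose and 21.3% fell.

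Among the base ATPases, the ring of motors that unfolds the substrate, Psmc1 and Psmc6 rose with H2O2. Psmc6 read 3938, 4858 and 4650.0 on the non-treated arrays, 4832, 5893 and 6377 with DNFB, 6986, 7467 and 6962 with H2O2, 3851, 5132 and 5085 with DPI and 3497, 4302 and 3521 with DPI + DNFB. Each H2O2 array lay above all others, and the 1.6-fold rise passed (log2 0.67 ± 0.132, adjusted p = 0.00061). The other 2 kept probe sets of Psmc6 gave 0.42 and 0.33, which did not pass. With DPI they gave -0.89 and -0.57, both past the threshold over all kept probe sets, where the chosen one stood at 0.06. For Psmc1 the H2O2 arrays at 3189, 3084 and 3211 and the DNFB arrays at 2903, 2953 and 3280.0 lay above the non-treated arrays at 2486, 2496 and 2315 (log2 0.38 ± 0.106, adjusted p = 0.0105 with H2O2 and log2 0.32 ± 0.106, adjusted p = 0.0308 with DNFB). The DNFB call of Psmc1 ended without any of the 3 non-treated arrays (0.34, 0.34 and 0.29) or without DNFB replicate 2 (0.34) or replicate 3 (0.27), and the value as deposited was -0.01. Psmc3 was higher with DPI (log2 0.45 ± 0.105, adjusted p = 0.00285), with arrays at 5506, 5149 and 6055 against 4279, 3804 and 4165 non-treated. Psmc2 and Psmc4 did not pass in any of the 8 comparisons, and Psmc5 was at -0.27 with DPI (adjusted p = 0.049), a call that 11 of the 15 arrays each ended when left out, at values from -0.31 to -0.22.

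Of the other base subunits, the scaffold Psmd1 read 5353, 5585 and 5015 on the non-treated arrays, 6223, 7087 and 6333 with DNFB, 5851, 6894 and 7589 with H2O2, 5546, 5243 and 6002 with DPI and 4172, 4496 and 4762 with DPI + DNFB. The DNFB and H2O2 arrays lay above, and the DPI + DNFB arrays below, all the non-treated ones. For DPI + DNFB against non-treated Psmd1 did not pass. Its rise with H2O2 (log2 0.34 ± 0.107, adjusted p = 0.021) ended without non-treated replicate 3 (0.30), H2O2 replicate 2 (0.33) or H2O2 replicate 3 (0.26), and the smaller value with DNFB (log2 0.30 ± 0.107, adjusted p = 0.0486) lost its call without any of 11 arrays, at values from 0.24 to 0.33. The values as deposited gave -0.03 for it. The ubiquitin receptor Psmd4 was at log2 0.32 ± 0.114, adjusted p = 0.049 with DNFB, a call that ended without any of 10 arrays, at values from 0.24 to 0.37. As deposited, its value was -0.02.

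The lid holds the enzyme that cuts off ubiquitin chains. With H2O2 Psmd8, Psmd11 and Psmd12 rose, and with DPI Psmd6, Psmd12 and the chosen probe set of Psmd7 fell. The call of Psmd6 (log2 -0.52 ± 0.166, adjusted p = 0.0202) ended without non-treated replicate 2 (-0.44) or 3 (-0.41) or DPI replicate 1 (-0.37). Psmd8 read 4595, 4033 and 4696 on the non-treated arrays, 5364, 4133 and 5802 with DNFB, 8149, 7120.3 and 7143 with H2O2, 5391, 4729 and 5487 with DPI and 3397, 3844 and 3535 with DPI + DNFB. The H2O2 arrays stood above all the others, 1.68-fold over non-treated (log2 0.75 ± 0.12, SE from 3 arrays per group, limma adjusted p = 8.85e-05), and DNFB was lower than H2O2 for this gene (log2 -0.56 ± 0.12, adjusted p = 0.00354).

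Psmd12 read 3714, 4011 and 4021 on the non-treated arrays, 4009.5, 4099 and 4842 with DNFB, 4792, 5344 and 5073 with H2O2, 2187, 2448 and 2490.2 with DPI and 2142, 2754 and 2286 with DPI + DNFB. The 6 arrays with DPI, alone or with DNFB, lay below the other 9. It was 1.65-fold lower with DPI (log2 -0.72 ± 0.111, adjusted p = 5.57e-05) and 1.64-fold lower with DPI + DNFB (log2 -0.71 ± 0.111, adjusted p = 6.18e-05; -0.40 and adjusted p = 0.171 with the beta-actin ratio as a covariate). With H2O2 it stood at log2 0.37 ± 0.111, adjusted p = 0.0163, and the call ended without non-treated replicate 1 (0.33) or H2O2 replicate 2 (0.33).

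Psmd7, the partner of the ubiquitin-cutting subunit, read 3001, 2651 and 2771 on the non-treated arrays, 3958, 2877 and 4344 with DNFB, 2937, 2843 and 2378 with H2O2, 1545, 1615 and 1523 with DPI and 921, 1689 and 1596 with DPI + DNFB on the chosen probe set. Again the 6 DPI arrays lay lowest, 1.79-fold below non-treated with DPI (log2 -0.84 ± 0.181, adjusted p = 0.00132), 2.06-fold with DPI + DNFB (log2 -1.04 ± 0.181, adjusted p = 0.000173) and 2.69-fold below DNFB alone (log2 -1.43 ± 0.181, adjusted p = 2.73e-06). The probe sets of Psmd7 disagreed. A dimmer one gave 1.83 for DPI + DNFB against non-treated and 1.31 against DNFB, and both passed over all kept probe sets. For DPI alone it gave 0.60, which did not pass (adjusted p = 0.141). The mean of the probe sets was 0.39 in the former (adjusted p = 0.115), and no direction is given for the gene as a whole with DPI or DPI + DNFB.

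Psmd11, which clamps the lid to the core particle, read 4805, 5732 and 5018 on the non-treated arrays, 6647, 6846 and 8063 with DNFB, 6589, 7899 and 6641 with H2O2, 4086, 4819 and 4945 with DPI and 2735, 3783 and 4529.5 with DPI + DNFB. The DNFB and H2O2 arrays lay above, and the DPI + DNFB arrays below, every non-treated array. With DPI + DNFB it was 1.98-fold lower than with DNFB alone (log2 -0.99 ± 0.147, adjusted p = 1.86e-05), and 2 of the 4 other kept probe sets gave -0.94 and -0.90, while the others gave -0.11 and 0.44. The rise with DNFB (log2 0.47 ± 0.147, adjusted p = 0.0238) ended without non-treated replicate 1 (0.42), non-treated replicate 3 (0.45) or DNFB replicate 3 (0.38). That with H2O2 (log2 0.44 ± 0.147, adjusted p = 0.03) ended without non-treated replicate 1 (0.39), non-treated replicate 3 (0.42) or H2O2 replicate 2 (0.35). Against non-treated cells DPI + DNFB stood at -0.52, but at -0.32 without DPI + DNFB replicate 1 and -0.44 without non-treated replicate 2, neither of which passed. Other kept probe sets of Psmd11 gave -0.42, which passed, -0.26 and 0.40, which did not, and 1.05, which passed the opposite way.

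Psmd3, another lid subunit, read 1938, 1679 and 1598 on the non-treated arrays, 1969, 2001 and 1845 with DNFB, 2524, 2152 and 1876 with H2O2, 2298, 2018 and 2109 with DPI and 2742, 2336 and 3278 with DPI + DNFB. The DPI + DNFB arrays lay above all the non-treated, DNFB and DPI arrays. Psmd3 rose 1.59-fold against non-treated (log2 0.67 ± 0.132, adjusted p = 0.000619; 0.36 and adjusted p = 0.355 with the covariate). Against DPI alone the value was log2 0.37 ± 0.132, adjusted p = 0.0451, a call that 10 of the 15 arrays each ended, with 0.24 as the lowest value, without DPI + DNFB replicate 3. Psmd14, the ubiquitin-cutting enzyme itself, read 8696, 7779 and 8241 on the non-treated arrays, 8375, 8523 and 9867 with DNFB, 9093, 10777 and 9784 with H2O2, 8453, 7816 and 8807 with DPI and 9190.2, 8942 and 9275 with DPI + DNFB and did not pass in any comparison, with log2 fold changes of 0.11, 0.26, 0.02 and 0.15 in the 4 against non-treated (adjusted p = 0.0559 with H2O2).

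**Figure D3:**
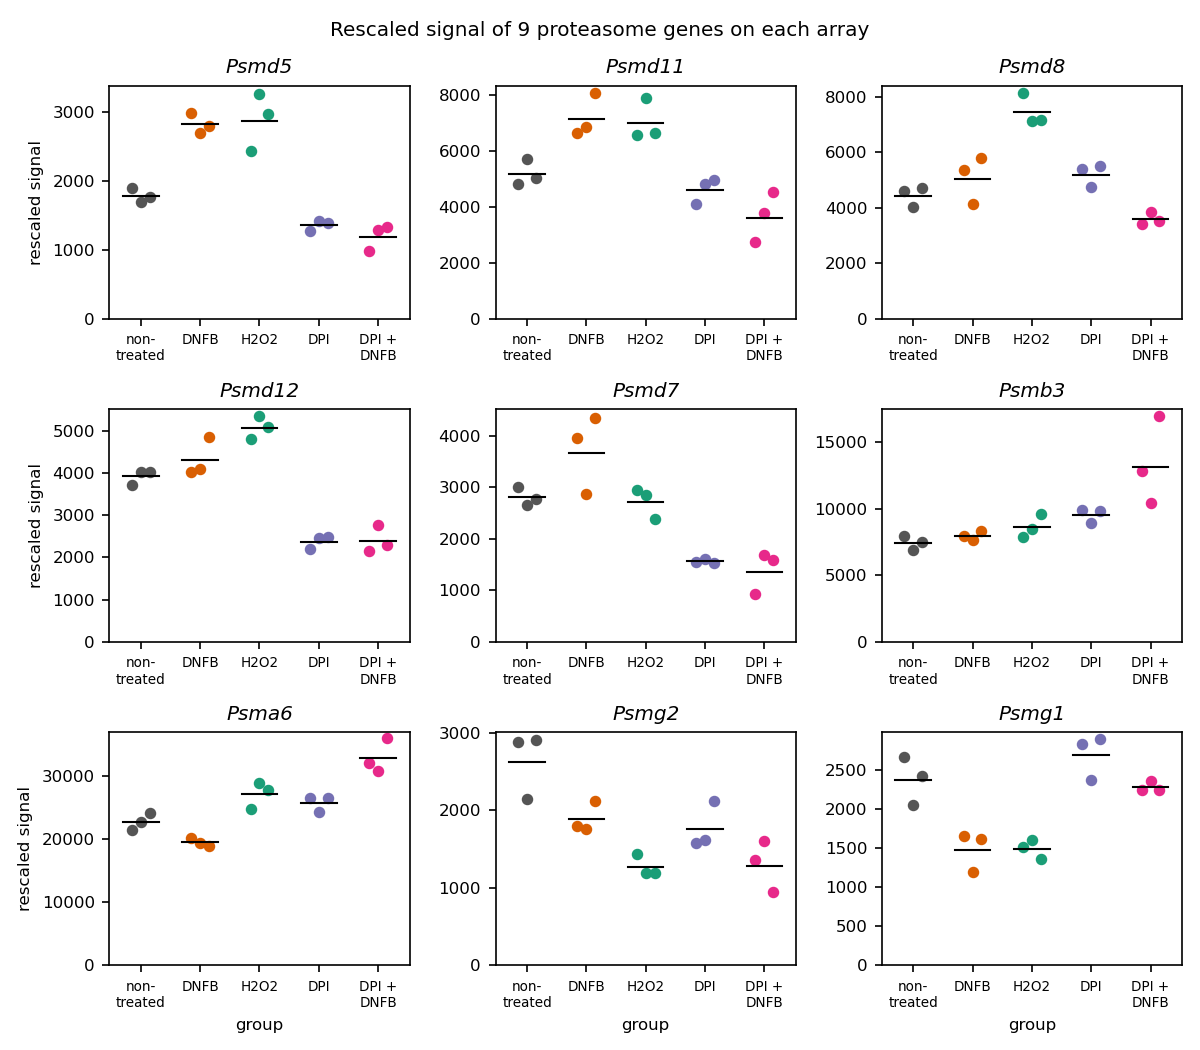
Rescaled signal (linear axis from 0) of 9 proteasome genes on each of the 15 arrays, with points for arrays, colours for the 5 groups and a black line for the geometric mean of a group. Psmd5, Psmd12 and the chosen probe set of Psmd7 are lowest on the 6 arrays with DPI, and Psmg1 is lowest with DNFB and H2O2. Another kept probe set of Psmd7 goes the opposite way.

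The activators cap the core particle in place of the regulatory particle. Psme1, a subunit of the interferon-induced cap, read 6762, 7031 and 6297 on the non-treated arrays, 6281, 5341 and 5692 with DNFB, 7416, 7400.0 and 6483 with H2O2, 9229, 8721 and 7158 with DPI and 10327, 9045 and 7897 with DPI + DNFB. The DNFB arrays lay below, and the DPI and DPI + DNFB arrays above, all of the non-treated arrays. It was 1.35-fold higher with DPI + DNFB (log2 0.43 ± 0.118, adjusted p = 0.00759; 0.34 and adjusted p = 0.0528 without DPI + DNFB replicate 1) and 1.57-fold higher than with DNFB alone (log2 0.65 ± 0.118, adjusted p = 0.000157). The values with DPI (log2 0.31 ± 0.118, adjusted p = 0.0483) and DNFB (log2 -0.22 ± 0.118, adjusted p = 0.212) were weaker: 11 of the 15 arrays each ended the DPI call when left out (0.24 to 0.35), and DNFB did not pass.

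Psme3, the nuclear activator, read 798, 746 and 634 on the non-treated arrays, 484, 489 and 581 with DNFB, 686, 799 and 749 with H2O2, 607, 565 and 629 with DPI and 625, 775 and 721 with DPI + DNFB. The DNFB arrays lay below all the non-treated and H2O2 arrays (log2 -0.47 ± 0.144, adjusted p = 0.0195 against non-treated and log2 -0.51 ± 0.144, adjusted p = 0.02 against H2O2). The first call ended without non-treated replicate 1 (-0.40) or 2 (-0.45) or DNFB replicate 1 (-0.43) or 2 (-0.44), and the second without DNFB replicate 1 (-0.47) or 2 (-0.48) or H2O2 replicate 2 (-0.46) or 3 (-0.51). Another kept probe set of Psme3 gave 0.10 and 0.13 for them. For DPI + DNFB against DNFB the chosen probe set gave 0.44 and the other -0.51, and both passed.

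Psme4, a large single-chain activator, read 2272, 2186 and 1748 on the non-treated arrays, 2164, 2352 and 2495 with DNFB, 1588, 1957 and 1884 with H2O2, 2128, 2966 and 3309.5 with DPI and 1426, 1522 and 1463 with DPI + DNFB. The DPI + DNFB arrays lay below all others. They were 1.86-fold below DPI alone (log2 -0.90 ± 0.145, adjusted p = 0.000163), where 2 of 4 other kept probe sets gave -0.77 and -0.47 and the others 0.30 and 0.86, and the covariate fit gave -0.82 (adjusted p = 0.0623). Against non-treated cells Psme4 passed as higher with DPI (log2 0.42) and lower with DPI + DNFB (-0.48). The DPI call ended without non-treated replicate 3 or DPI replicate 2 or 3 (0.29 to 0.37), and DPI replicate 1 lay within the non-treated range. That of DPI + DNFB ended without non-treated replicate 1 or 2 (-0.44 to -0.41). The inhibitor Psmf1 read 765, 811 and 566 on the non-treated arrays, 693, 606 and 771 with DNFB, 1039, 759 and 735 with H2O2, 885, 797 and 736 with DPI and 549, 785 and 796 with DPI + DNFB, with overlapping groups and adjusted p between 0.372 and 0.968 against non-treated cells. Its other 3 kept probe sets, all dimmer, gave -0.80, -0.86 and -1.77 with DPI, each past the threshold over all kept probe sets, so the probe sets of Psmf1 disagreed too.

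Among the assembly chaperones, Psmd5 passed in all 4 comparisons against non-treated cells, and no other member did. Psmd5 helps to join the base of the regulatory particle. Its signals were 1893, 1698 and 1768 on the non-treated arrays, 2983, 2697 and 2797 with DNFB, 2435, 3267 and 2973 with H2O2, 1274, 1420.1 and 1387 with DPI and 975, 1289.7 and 1332 with DPI + DNFB. Every DNFB and H2O2 array lay above, and every array with DPI below, the non-treated range. It was 1.58-fold higher with DNFB (log2 0.66 ± 0.13, SE from 3 arrays per group, limma adjusted p = 0.000738) and 1.6-fold higher with H2O2 (log2 0.68 ± 0.13, adjusted p = 0.000486), 1.31-fold lower with DPI (log2 -0.39 ± 0.13, adjusted p = 0.0269) and 1.5-fold lower with DPI + DNFB (log2 -0.58 ± 0.13, adjusted p = 0.00171; -0.50 and adjusted p = 0.2 with the covariate). Between DPI + DNFB and DNFB alone the difference was 2.36-fold (log2 -1.24 ± 0.13, adjusted p = 2.86e-07; -1.17 and adjusted p = 0.000386 with the covariate). The DPI call ended without non-treated replicate 1 (-0.35) or 3 (-0.40) or DPI replicate 1 (-0.34) or 3 (-0.40).

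Psmg1 and Psmg2 form a pair that starts the alpha ring. Psmg1 read 2665, 2050.2 and 2421 on the non-treated arrays, 1653, 1187 and 1609 with DNFB, 1512, 1602 and 1362 with H2O2, 2826, 2366 and 2890.0 with DPI and 2241, 2354 and 2237 with DPI + DNFB. The DNFB and H2O2 arrays lay below all 9 others, 1.61-fold below non-treated with DNFB (log2 -0.68 ± 0.135, adjusted p = 0.000723) and 1.58-fold with H2O2 (log2 -0.66 ± 0.135, adjusted p = 0.000885). Psmg2 read 2881, 2148 and 2910.0 on the non-treated arrays, 1795, 1753 and 2119 with DNFB, 1433, 1195 and 1184 with H2O2, 1584, 1618 and 2121 with DPI and 1364, 1609.6 and 945 with DPI + DNFB. The H2O2 and DPI + DNFB arrays lay below all non-treated ones, 2.06-fold (log2 -1.04 ± 0.173, adjusted p = 0.000127) and 2.04-fold (log2 -1.03 ± 0.173, adjusted p = 0.000129) below non-treated, and the second became -0.48 (adjusted p = 0.306) with the covariate. Of 2 other kept probe sets of Psmg2, one gave -0.70 and -0.36 and the other 0.08 and 0.42. With DPI they gave -0.45, which passed, and 0.47. The chosen one then stood at log2 -0.57 ± 0.173, adjusted p = 0.0156, and the call ended without non-treated replicate 1 (-0.50) or 3 (-0.50) or DPI replicate 1 (-0.50) or 2 (-0.51). DNFB against H2O2 gave log2 0.57 ± 0.173, adjusted p = 0.0321, which ended without any DNFB array (0.60, 0.62 and 0.48) or H2O2 replicate 2 (0.53) or 3 (0.52).

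Psmg3 and Psmg4 form the other pair for that ring. Psmg4 read 1581, 1065 and 1589.7 on the non-treated arrays, 1505, 1175 and 1605 with DNFB, 1544, 1337 and 1202 with H2O2, 2333, 1673 and 2156 with DPI and 2851, 1991 and 2911 with DPI + DNFB. The arrays with DPI, alone or with DNFB, lay above all 9 others. It was 1.82-fold higher with DPI + DNFB (log2 0.87 ± 0.181, adjusted p = 0.000972; 0.59 and adjusted p = 0.283 with the covariate). With DPI alone the value was log2 0.55 ± 0.181, adjusted p = 0.026, and without non-treated replicate 2 it was 0.36 (adjusted p = 0.174). It also lost its call without DPI replicate 1 (0.45) or 3 (0.50). Psmg3 read 2745, 2588 and 2926 on the non-treated arrays, 2585, 2254 and 2561 with DNFB, 3073, 2900.1 and 2799 with H2O2, 2115, 1623 and 1829.6 with DPI and 3147, 2618 and 3610.1 with DPI + DNFB. The DPI arrays lay below all the others, 1.49-fold under non-treated (log2 -0.57 ± 0.124, adjusted p = 0.00141), and the gene's other kept probe set gave -1.22. With DPI + DNFB that probe set stood at -1.73 against non-treated and -1.80 against DNFB, both past the threshold, where the chosen one stood at 0.17 and 0.33. With DPI the pair thus went opposite ways, also after median centring and quantile normalization.

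The base chaperone Psmd10 read 845, 1023 and 1039 on the non-treated arrays, 967, 892 and 1092 with DNFB, 900.0, 847 and 877 with H2O2, 1263, 1307 and 1350.1 with DPI and 751, 994 and 866 with DPI + DNFB. The DPI arrays lay above all the others. The rise against non-treated (log2 0.43 ± 0.132, adjusted p = 0.0167) ended without non-treated replicate 1 (0.34) or DPI replicate 3 (0.41), and with DPI + DNFB the gene was lower than with DPI (log2 -0.59 ± 0.132, adjusted p = 0.00256). The chaperone Psmd9 had log2 fold changes between -0.16 and 0.24 against non-treated and did not pass there.

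A pair of members share the name but are not proteasome subunits. Psmc3ip, a factor of meiotic recombination, read 607, 631 and 837 on the non-treated arrays, 594, 423 and 610.5 with DNFB, 501, 334 and 432 with H2O2, 494, 563 and 646 with DPI and 554, 675 and 664 with DPI + DNFB. The H2O2 arrays lay below the non-treated ones (log2 -0.70 ± 0.189, adjusted p = 0.00857; -0.55 without non-treated replicate 3 and -0.54 without H2O2 replicate 2, neither past the threshold), and its other probe set gave -0.89. Psme3ip1, which binds the activator Psme3, read 2290.3, 2364 and 2336 on the non-treated arrays, 2477, 2060.0 and 2355 with DNFB, 2433, 2867 and 2550.2 with H2O2, 3394, 3217 and 3549 with DPI and 2089, 2417 and 2324 with DPI + DNFB. The DPI arrays lay above all others (log2 0.54 ± 0.105, adjusted p = 0.000582 against non-treated, and log2 -0.57 ± 0.105, adjusted p = 0.000504 for DPI + DNFB against DPI). Of the members below the filter, Psma8, a testis subunit, had signals from 2.82 to 48.5 over the 15 arrays, and Psmb11, the subunit of thymus epithelium, from 5.3 to 88.9.

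DNFB and H2O2 differed directly in 5 members (14.7% of all genes passed). DNFB was lower than H2O2 in 4 of the 44 (9.09%, against 6.0% of all genes) and higher in 1 (2.27%, against 8.75%): lower for Psmd8, Psme3, Psma6 and Psmb2 (log2 -0.33 ± 0.0955, adjusted p = 0.0225), higher for Psmg2. Doses and times are not given, so compound and dose cannot be told apart. The count of 5 was 2, 3, 2 and 2 without DNFB replicate 1, DNFB replicate 2, H2O2 replicate 2 or H2O2 replicate 3. It was 0 and 1 within the arrays of scaling target 250 and 500, and the Psmb2 call ended without any one of those same 4 arrays, the lowest value being -0.27, without DNFB replicate 1. Median centring gave 1 higher and 2 lower, and quantile normalization 0 and 3.

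DPI + DNFB against DNFB alone asks what the inhibitor changed in allergen-treated cells, and of the 8 comparisons it held the most calls. It shares its DNFB arrays with DNFB against non-treated. Of the 44 members 24 passed (44.2% of all genes): 10 rose (22.7%, against 22.9% of all genes) and 14 fell (31.8%, against 21.3%). The falls took in 8 of 17 regulatory particle genes, counting Psmd7. Psmd7 read lowest on its chosen probe set, which another probe set opposes as given above. The members next farthest down were the chaperone Psmd5 and Psmd11, and those farthest up Psmg4 (log2 0.84 ± 0.181, adjusted p = 0.000781), Psma6 and Psmb3. The lid and base genes Psmd12, Psmc6, Psmd1, Psmd8, Psmd2 and Psmc1 fell by 0.85, 0.59, 0.55, 0.49, 0.42 and 0.37 on the log2 scale. The last lost its call without DPI + DNFB replicate 1 (-0.28). With the beta-actin ratio as a covariate 3 members rose and 5 fell (22.9% of all genes passed): Psma6, Psme1 and Psmg1 up, and Psmd1, Psmd5, Psmd11, Psmd12 and the chosen probe set of Psmd7 down. Median centring gave 4 rises and 20 falls, after moving the median of all genes by -0.274. Within the arrays of target 250 there were 21 calls and within those of 500 there were 15.

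The effect of DNFB in cells given DPI, DPI + DNFB against DPI alone, took in 15 members (27.8% of all genes passed), with 5 rises (11.4%, against 14.1% of all genes) and 10 falls (22.7%, against 13.7%). Psmg3 rose 1.67-fold (log2 0.74 ± 0.124, adjusted p = 0.000221; 0.48 and adjusted p = 0.167 with the covariate; -0.51 on its other probe set), and the largest falls were those of Psme4, Psmd10 and Psme3ip1 given above. Within the arrays of target 250 and 500 the 15 calls were 4 and 5, median centring gave 1 rise and 17 falls, and with the beta-actin ratio as a covariate limma called 0 (4.26% of all genes passed, and 5 members had an unadjusted p below 0.05).

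**Figure D4:**
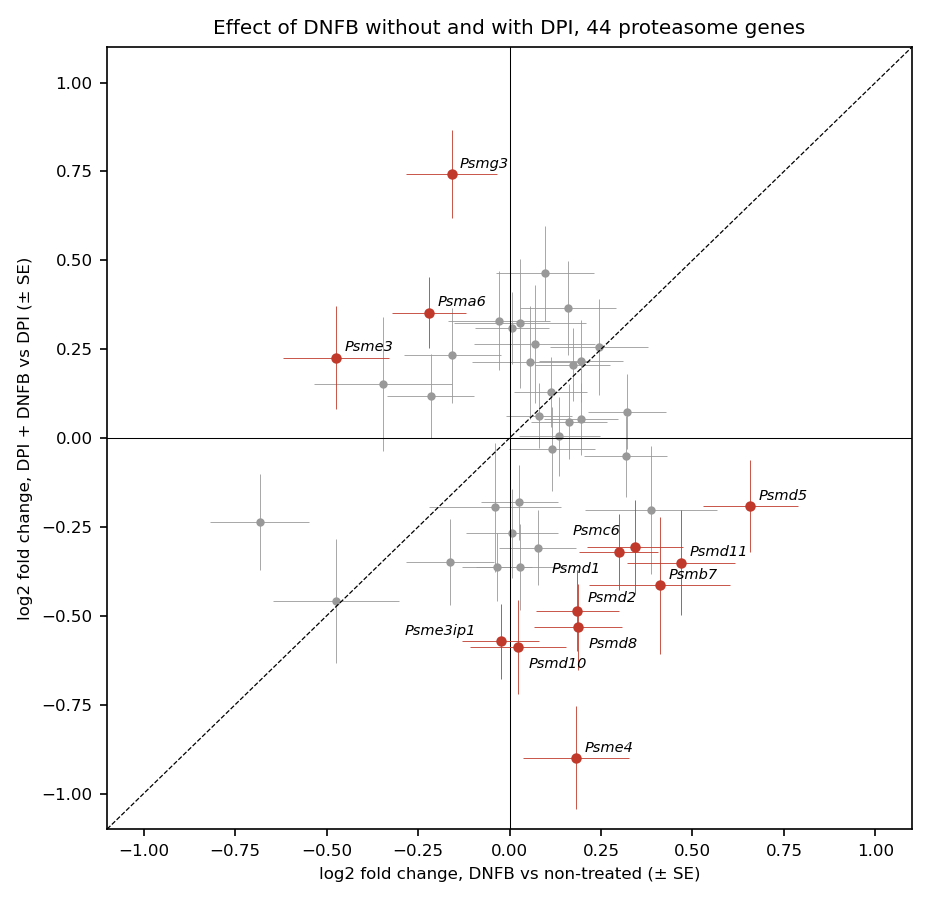
Log2 fold change of each of the 44 tested genes for DNFB without DPI (x axis) and with DPI (y axis), with SE bars, 3 arrays a group and no array shared by the axes. Red points passed the interaction test: 10 lie below the dashed line of equal effect and 3 above it.

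Whether the effect of DNFB differed with DPI was tested as an interaction. It passed for 13 of 44 members (31.1% of all genes): the effect was lower with DPI in 10 (22.7%, against 13.8% of all genes) and higher in 3 (6.82%, against 17.3%). The values farthest below 0 were those of Psme4 (log2 -1.08 ± 0.205, adjusted p = 0.000447), Psmd5 (log2 -0.85 ± 0.184, adjusted p = 0.00142) and Psmb7 (log2 -0.83 ± 0.272, adjusted p = 0.0256). For Psmb7, 8 of the 15 arrays each ended the call when left out, at values from -0.67 to -0.80, and that of Psmd10 (-0.61) ended without non-treated replicate 1 (-0.52) or DNFB replicate 3 (-0.53). Psmg3 (log2 0.90 ± 0.175, adjusted p = 0.000566), Psme3 (log2 0.70 ± 0.204, adjusted p = 0.0123) and Psma6 (log2 0.57 ± 0.143, adjusted p = 0.0044) stood on the other side. Their other kept probe sets did not bear this out throughout: that of Psmg3 gave -0.58, that of Psme3 -0.26 and those of Psma6 -0.01, 0.30 and 0.71, none past the threshold. Regulatory particle genes made up 5 of the 10 that were lower: Psmd1, Psmd2, Psmd8, Psmd11 and Psmc6, at values between -0.62 and -0.82. Both other kept probe sets of Psmc6 gave 0.16 and 0.17, those of Psmd11 -0.71, -0.81, -0.37 and -0.20, and those of Psme4 -0.995 (past the threshold), -0.52, -0.46 and 0.48. Within the arrays of target 250 and 500 7 and 6 members passed, and with the beta-actin ratio as a covariate 6 did. Median centring gave 1 higher and 16 lower, having moved the median of all genes by -0.275.

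Of 39 other genes of the ubiquitin and proteasome pathway 30 were tested. With DNFB 10 rose and 4 fell, with H2O2 8 and 4, with DPI 6 and 7, and with DPI + DNFB 8 and 7. Their median log2 fold change was 0.122, 0.131, -0.003 and 0.006 in that order. Of all genes 10.5% rose and 13.9% fell with DNFB, 10.9% and 17.4% with H2O2, and 13.3% and 18.4% with DPI. Those for DPI + DNFB are given above. The list was chosen with earlier results of these data known and includes Psmb8, Psmb9 and Psmb10. An excess of rises or falls over all genes was not tested. The immunoproteasome subunits Psmb8, Psmb9 and Psmb10, which replace the cutting subunits of the core, were lower with DNFB and with H2O2. Psmb9 read 5452, 5200.4 and 4686 on the non-treated arrays, 2721, 2378 and 2631 with DNFB, 3785, 4699 and 3567 with H2O2, 6160.4, 6033 and 5547 with DPI and 6679.8, 7921 and 7501 with DPI + DNFB. Its DNFB arrays lay below all others (log2 -0.98 ± 0.113, adjusted p = 2.19e-06; log2 1.51 ± 0.113, adjusted p = 4.56e-09 for DPI + DNFB against DNFB), and with H2O2 it stood at log2 -0.35 ± 0.113, adjusted p = 0.0235. Psmb8 stood at -1.06 and Psmb10 at -1.08 with DNFB (adjusted p = 2.07e-05 and 1.12e-05), and at -0.51 and -0.44 with H2O2 (adjusted p = 0.0138 and 0.0259). On H2O2 replicate 2 all 3 lay within the non-treated range. Psmb8, Psmb9 and Psmb10 read 7641, 4699 and 3091 there, against lowest non-treated values of 7493, 4686 and 2953. With DNFB the subunits that the 3 replace, Psmb5, Psmb6 and Psmb7, stood at 0.17, 0.20 and 0.41 and did not pass.

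Nfe2l2, one of the factors that induce proteasome genes, read 2316, 2289 and 2294 on the non-treated arrays, 3460.4, 3852 and 3287 with DNFB, 3586, 3414 and 4168 with H2O2, 1836, 1822 and 1876 with DPI and 1942, 2275 and 2031 with DPI + DNFB. It rose with DNFB (log2 0.61 ± 0.105, adjusted p = 0.00018) and H2O2 (log2 0.69 ± 0.105, adjusted p = 5.16e-05) and was lower with DPI (log2 -0.32 ± 0.105, adjusted p = 0.0262). Nfe2l1 read 1108, 1171 and 1088 on the non-treated arrays, 1672, 1481 and 1429 with DNFB, 1472, 1229 and 1200.0 with H2O2, 1411, 1428 and 1117 with DPI and 1937, 1849 and 2229 with DPI + DNFB. It was higher with DNFB (log2 0.44 ± 0.127, adjusted p = 0.0152) and most with DPI + DNFB (log2 0.82 ± 0.127, adjusted p = 5.45e-05), and did not pass with H2O2 (log2 0.20) or DPI (log2 0.22).

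Zfand2a, a stress-induced partner of the regulatory particle, rose in all 4 comparisons, from 2845, 3055 and 2713 non-treated to 8509, 11976 and 10231 with DNFB (3.52-fold), 12126, 15049 and 12598 with H2O2 (4.58-fold), 9209, 8865 and 8738 with DPI (3.1-fold) and 12757, 14063 and 14221 with DPI + DNFB (4.75-fold, adjusted p at most 5.76e-09). No member of the 44 had as large a fold in the same comparison. The related Zfand5 rose 2.18-fold with DNFB and 2.97-fold with H2O2. The chaperone of core assembly Pomp was at -0.28 with DNFB (adjusted p = 0.114) and higher with DPI + DNFB (log2 0.61 ± 0.126, adjusted p = 0.000851), and the small lid subunit Sem1, which the naming rule misses, was higher with DPI (log2 0.50 ± 0.12, adjusted p = 0.0033) and DPI + DNFB (log2 0.82 ± 0.12, adjusted p = 3.35e-05). The ubiquitin-activating enzyme Uba6 fell with DPI + DNFB (log2 -1.35 ± 0.143, adjusted p = 9.49e-07) and the conjugating enzyme Ube2d1 rose with DNFB (log2 1.06 ± 0.17, adjusted p = 9.77e-05) and fell with DPI + DNFB (log2 -1.05 ± 0.17, adjusted p = 9.17e-05). Nploc4 was lower with DPI (log2 -0.87) and Ngly1 with H2O2 (log2 -0.75), and both passed. For these other pathway genes the fits without single arrays, with the covariate and on other probe sets were not examined.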

How the data were processed

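The members and gene lists were chosen with earlier results of these data known. The 15 arrays, 3 to each of 5 groups, measured total RNA. Per the submitters' processing notes, the deposited intensity values, a linear signal per probe set, were made by the authors with MAS5 in Affymetrix Expression Console, versions not given. Their 2% trimmed mean lay at 250 on 6 arrays and at 500 on 9, so each array was rescaled to 500, and log2(signal + 15) was used, which draws folds of dim genes toward 1. Probe sets at or above the 40th percentile of mean log2 signal (6.22) were kept. Of 45037 probe sets besides 64 controls, 34945 had 1 gene symbol, 932 several and 9160 none. Symbols came from the platform annotation, updated through gene identifiers. No array's values duplicated another's. Group means were fitted over all arrays with limma 3.58.1 in R 4.3.3 (eBayes with trend, 10 residual degrees of freedom), with Benjamini-Hochberg adjustment over 12701 genes in each of 8 comparisons. The number of arrays limits the precision (median SE 0.197, log2 scale). The steps were tested on simulated data. In each comparison against non-treated, the members with the 4 largest rises and 4 largest falls that passed are named with their statistics (3 and 3 elsewhere), with Psme1, Psmf1, Psmb5, Psmd14 and Psmc3ip always; others are described by role. Alternatives covered the pseudocount, filter, normalization, scaling, probe set rule, variance model, blocks, a beta-actin covariate, the groups fitted, the threshold and each array left out in turn.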

Additional observations from a re-analysis of the deposited data

Results flagged for a closer look

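The interaction of DPI and DNFB is the log2 change from DNFB in DPI-treated cells less that in cells without DPI. It passed for 13 of 44 members (29.5%), a share near the 31.1% of all genes. It was below 0 for the activator Psme4 (-1.08), the chaperones Psmd5 (-0.85) and Psmd10 (-0.61), the cutting subunit Psmb7 (-0.83), the lid subunits Psmd11 (-0.82) and Psmd8 (-0.72), the base subunits Psmd2 (-0.67), Psmc6 (-0.65) and Psmd1 (-0.62), and Psme3ip1 (-0.55). It was above 0 for Psma6 (0.57), the activator Psme3 (0.70) and the chaperone Psmg3 (0.90). The call of Psmb7 ended without any 1 of 8 arrays, and that of Psmd10 without either of 2. Other kept probe sets gave the opposite sign for Psme3 (-0.26), Psmg3 (-0.58), Psmc6 (0.16 and 0.17), 1 of 3 for Psma6 (-0.01) and 1 of 4 for Psme4 (0.48), none past the threshold. Psmd5 rose with DNFB alone and stood at -0.19 with DNFB on top of DPI, which did not pass (adjusted p = 0.291). Groups of 3 arrays are too small for a search for outlying arrays.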

How the results depend on the processing

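On the rescaled signals, the number of the 44 members that passed moved by at most 5 with pseudocount 1 or 50, without the signal filter or with a filter at the 60th percentile. Leaving out each array in turn gave 3 to 8 members for DNFB, 8 to 14 for H2O2, 8 to 19 for DPI and 13 to 19 for DPI + DNFB against non-treated, 2 to 6 for DNFB against H2O2, 20 to 25 and 10 to 18 for DPI + DNFB against DNFB and against DPI, and 12 to 18 for the interaction. Median centring gave 2 (DNFB), 8 (H2O2), 10 (DPI) and 3 (DNFB against H2O2), quantile normalization 3 in the last, and eBayes without a trend 3 (DNFB), 8 (DPI) and 3 (DNFB against H2O2). Array weights gave 12 for DNFB, and the mean of the kept probe sets 3 for DNFB against H2O2. At an adjusted p below 0.01 there were 2 (DNFB), 8 (H2O2), 5 (DPI), 2 (DNFB against H2O2) and 7 (DPI + DNFB against DPI). Fitting only the groups compared gave 7 in the last. Of the arrays deposited at target 250 alone, 5 members passed for H2O2, 4 for DPI, 0 for DNFB against H2O2 (8 at an unadjusted p below 0.05 in limma), 4 for DPI + DNFB against DPI and 7 for the interaction. Of those at 500 it was 2 (DNFB), 8 (DPI), 10 (DPI + DNFB), 1 (DNFB against H2O2), 15 and 5 (DPI + DNFB against DNFB and DPI) and 6 (interaction). These fits hold fewer arrays, and a lone array of a group is assumed to vary like the other groups. The values as deposited gave limma 0 calls in all 8 comparisons, with 0 to 4 members at an unadjusted p below 0.05. There a doubled scale within a group enters the spread. With the beta-actin ratio as a covariate 0, 8 and 0 members passed for DPI + DNFB against non-treated, DNFB and DPI, and 6 for the interaction. The ratio ran largely with DPI + DNFB, so RNA quality and that group cannot be told apart in these fits.

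Equal replicate numbers did not mark pairs by the labels. Over 30 pairs of arrays with the same number the correlation of deviations from the group means was -0.003 to 0.144 (median 0.074, 9 above 0.1). Over 60 pairs with other numbers it was -0.138 to 0.0484 (median -0.033, 0 above 0.1). Deviations within a group sum to 0, so the lower values of the second set follow from those of the first and are not separate evidence. Arrays of the same number were slightly more alike, and the main fit held no term for that. The highest correlation between replicate 3 arrays was 0.0829. All replicate 1 arrays had a scaling target of 250 and all replicate 2 arrays 500, so number and target largely ran together. With the replicate number as a block 9, 15, 19 and 20 members passed against non-treated in the order above, 8 for DNFB against H2O2, 27 and 19 for DPI + DNFB against DNFB and DPI, and 15 for the interaction. The scaling target as a block gave 8 for DNFB against H2O2.

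Of 53 named calls 37 held without each array in turn. Signs turned for Psmc1 and Psmd4 with DNFB in the values as deposited (-0.0105 and -0.0151) and, among calls described by role, for Psmd1 with DNFB (-0.03) and Psma2 and Psma4 in DPI + DNFB against DNFB (0.05 and 0.005), and under the mean of the kept probe sets for Psmd7 with DPI + DNFB (0.39) and Psmf1 with DPI (-0.81, limma adjusted p = 0.00413). Apart from the fits on fewer arrays and genes, the cause of these moves was not tested. Signal over background limits dim members: Psma8 and Psmb11 could not be compared.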
